A study of Mus musculus with 23 samples.

Results

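Ide encodes insulin-degrading enzyme, a zinc metallopeptidase of the M16 family that cleaves insulin, amyloid-beta and other short peptides. On mouse chromosome 19 it lies among genes of unrelated function, and 10 of these genes, Ide included, are described here out of 20016 in the cortex table and 19890 in the cord table. They are, in genomic order, Hectd2, Ppp1r3c, Tnks2, Fgfbp3, Btaf1, Cpeb3, Ide, Kif11, Hhex and Exoc6. Ide was chosen by its cortex levels in F08 against NTg and F112 against F08, and the other 9 for lying around it; cortex differences are therefore given as a description with no test. Which cord values were known when the neighbours were chosen is not recorded, and cord p-values below are adjusted over all genes tested.

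The mice were C57BL/6, collected at 6 months. F112 mice carried a bacterial artificial chromosome (BAC) transgene with expanded human C9orf72, F08 mice one with unexpanded human C9orf72, and NTg mice no transgene. The cortex was sampled from 3 F112, 4 F08 and 4 NTg mice, and the lumbar spinal cord from 4 mice of each genotype, among them the same 11 animals. Each transgenic genotype bears 1 label, so transgene and line cannot be told apart, and mice of 1 genotype were taken as its replicates. Total RNA from frozen tissue was sequenced with an Ion Torrent protocol (cortex) or an Illumina protocol (cord), and the authors deposited RPKM, aligned reads scaled by gene length and library size.

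Of the neighbours, Fgfbp3 encodes a secreted protein that binds fibroblast growth factors, Btaf1 an ATPase that removes TATA-binding protein from DNA, and Cpeb3 an RNA-binding protein that regulates translation at synapses. Tnks2 is a tankyrase, Ppp1r3c directs protein phosphatase 1 to glycogen, and Hectd2 belongs to the HECT ubiquitin ligases. Kif11 is a mitotic kinesin, Hhex a homeobox transcription factor and Exoc6 a subunit of the exocyst, which tethers secretory vesicles. As background, a copy number variant that holds Ide and Fgfbp3 has been described among C57BL/6J mice; DNA was not analysed here, and copy number was not tested.

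The 10 genes span 1129421 bases of GRCm38. Fgfbp3 (chr19:36917550-36919615, minus strand) and Btaf1 (chr19:36926079-37012752, plus strand) point away from each other and are 6463 bases apart. Cpeb3 (chr19:37021291-37208601, minus strand) follows 8538 bases after Btaf1. Ide (chr19:37268743-37337852, minus strand) begins 60141 bases beyond Cpeb3. On the left are Hectd2 (chr19:36554639-36621135), Ppp1r3c (chr19:36731731-36736653) and Tnks2 (chr19:36834232-36893477). On the right are Kif11 (chr19:37376403-37421859), Hhex (chr19:37434810-37440731) and Exoc6 (chr19:37550418-37684059). A gene between Cpeb3 and Ide whose name a spreadsheet had turned into a date was not analysed here.

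The 250 bases before the RefSeq starts (GRCm38.p6) of the 3 genes that were high together in F08 cord are shown as a description. A role of these sequences in the levels was not tested. Capitals mark matches, on either strand, to 5 motifs: the cAMP response element (TGACGTCA), the TATA box (searched as TATAAA), the motif CCAAT, the GC box, searched as GGGCGG, and the E-box, searched as CACGTG.
Btaf1: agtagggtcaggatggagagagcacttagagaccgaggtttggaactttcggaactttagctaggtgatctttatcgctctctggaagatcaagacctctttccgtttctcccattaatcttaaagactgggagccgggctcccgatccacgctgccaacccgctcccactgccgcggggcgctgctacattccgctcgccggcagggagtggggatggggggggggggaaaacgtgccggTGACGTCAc
Fgfbp3: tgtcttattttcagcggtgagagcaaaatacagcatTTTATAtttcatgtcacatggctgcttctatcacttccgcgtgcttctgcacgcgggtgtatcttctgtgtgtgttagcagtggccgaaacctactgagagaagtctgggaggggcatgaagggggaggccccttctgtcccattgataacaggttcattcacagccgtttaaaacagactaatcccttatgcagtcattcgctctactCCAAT
Ide: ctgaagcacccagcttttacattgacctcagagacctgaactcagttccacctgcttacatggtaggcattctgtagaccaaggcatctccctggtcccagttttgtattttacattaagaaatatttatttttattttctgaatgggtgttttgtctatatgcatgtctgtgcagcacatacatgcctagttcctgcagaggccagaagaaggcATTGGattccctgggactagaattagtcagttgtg
The Btaf1 stretch (chr19:36925829-36926078, plus strand) held TGACGTCA, which begins 9 bases before the start and occurs in 1.55% of 32851 promoter entries. The Fgfbp3 stretch (chr19:36919600-36919849, minus strand) held TATAAA, found in 12.4% of entries, and the motif CCAAT, found in 33.8%. The TATAAA match reads TTTATA on the strand shown and begins 214 bases before the start, while CCAAT begins 5 bases before it. The Ide stretch (chr19:37334545-37334794, minus strand) held CCAAT only, and its RefSeq start lies 3308 bases inside the gene as GENCODE draws it. No motif searched was common to all 3 stretches. Since the Ide stretch lies inside the gene as GENCODE draws it, this cannot show what the 3 promoters share. CpG dinucleotides numbered 17 in the Btaf1 stretch, 8 in that of Fgfbp3 and 0 in that of Ide, against a median of 6 over all entries.

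Total alignments per library were 9398450 to 14715900 in cortex and 28479400 to 38811100 in cord, so that cord values rest on more reads. From exon lengths, Ide values stood for about 1987 to 5147 reads in cord and 331 to 1264 in cortex, while Fgfbp3 values stood for about 63 to 174 in cord and 23 to 54 in cortex. Cord libraries held 34097800 to 38811100 alignments in F112, 31459800 to 37367600 in F08 and 28479400 to 34100800 in NTg mice. With log2 alignments as a covariate, the Ide difference in F08 against NTg cord was 0.60 and lost its call (limma adjusted p = 0.0731). Tissue identity was as labelled: the cortical neuron gene Slc17a7 had 165.9 to 304.7 RPKM in cortex and at most 1.81 in cord, and Prph, of motor neurons, 29.4 to 44.4 RPKM in cord and at most 1.32 in cortex. Ttr, a choroid plexus gene, reached 725.4 RPKM in cortex libraries and at most 0.697 in cord. The mouse C9orf72 gene (listed as 3110043O21Rik) averaged 12.6 ± 0.64 RPKM in F112, 11.8 ± 0.255 in F08 and 12.0 ± 0.129 in NTg cord, and 10.1 ± 0.56 in F112, 6.62 ± 0.825 in F08 and 3.43 ± 0.546 in NTg cortex (SD, n = 3 in F112 cortex and 4 elsewhere). Whether reads of human C9orf72 were counted in the mouse C9orf72 values was not tested. Xist exceeded 1 RPKM in 2 of 4 cord libraries of each genotype. In tissue libraries, fewer cells of a type and less RNA per cell cannot be told apart.

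In the lumbar cord, Ide, Btaf1 and Fgfbp3 read higher in every F08 mouse than in any mouse of either other genotype. The tested members on both sides of them, and Cpeb3 between them, were near their NTg level. Kif11, the member next to Ide on the right, and the gene between Cpeb3 and Ide whose name had become a date were not tested. Ide read 9.23, 9.24, 10.1 and 10.5 RPKM in the 4 F112 mice, 14.8, 14.7, 14.9 and 18.4 in the F08 mice, and 9.42, 9.30, 10.4 and 9.43 in the NTg mice. All 4 F08 values lay above all 8 others, and mouse 6321 was the highest of the F08 mice. Ide averaged 9.76 ± 0.627 RPKM in F112, 15.7 ± 1.76 in F08 and 9.64 ± 0.514 in NTg cord (SD, n = 4 each). In F08 against NTg it rose by 0.67 on the log2(RPKM + 0.5) scale (SE 0.0667, limma adjusted p = 0.000756), a ratio of means of 1.63, and it was the only gene called: 0.00723% of 13839 genes passed upward. In F112 against F08 it fell by 0.66 (SE 0.0667, adjusted p = 0.00105). In F112 against NTg its log2 difference was 0.02 (SE 0.0667, adjusted p = 0.968).

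**Figure D1:**
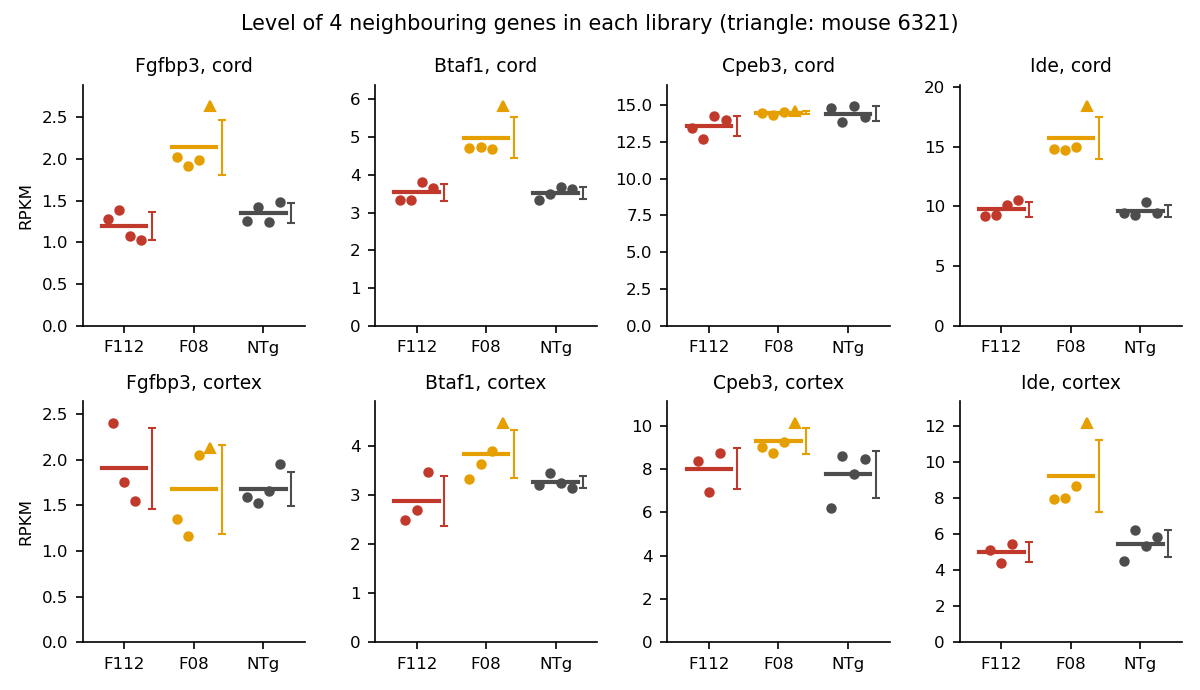
RPKM of Fgfbp3, Btaf1, Cpeb3 and Ide in each library, in cord (top) and cortex (bottom), with the genotypes F112, F08 and NTg along the x axis; points are mice, the triangle is mouse 6321, horizontal lines are means and bars ± SD. In cord the 4 F08 points of Fgfbp3, Btaf1 and Ide sit above all others, with Ide at 14.7 to 18.4 RPKM, while Cpeb3 stays at 12.7 to 14.9 in all 12 libraries.

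Btaf1 read 3.33, 3.35, 3.82 and 3.64 RPKM in F112 cord, 4.72, 4.73, 4.69 and 5.81 in F08 cord, and 3.33, 3.48, 3.68 and 3.63 in NTg cord. Again the F08 mice stood apart from the others without overlap, with mouse 6321 the highest. In F112 against F08 Btaf1 fell by 0.44 (SE 0.0667, adjusted p = 0.0431). In F08 against NTg its difference was 0.44 (SE 0.0667, adjusted p = 0.0639), which did not pass the threshold of 0.05. Its levels in F112 and NTg cord, 3.53 ± 0.235 and 3.53 ± 0.158 RPKM (SD, n = 4 each), gave a log2 difference of 0.00044 (SE 0.0667).

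Fgfbp3 is the least abundant of these 3 genes. It read 1.28, 1.38, 1.08 and 1.03 RPKM in F112 cord, 2.02, 1.91, 1.98 and 2.63 in F08 cord, and 1.25, 1.42, 1.24 and 1.48 in NTg cord. The F08 mice were once more above all others, and mouse 6321 was the highest. In F112 against F08 it fell by 0.63 (SE 0.0912, adjusted p = 0.0358). In F08 against NTg its difference was 0.51 (SE 0.0912, adjusted p = 0.284), so this comparison did not pass. At this level the pseudocount matters: the fitted fold was 1.42, and the ratio of means 1.58. In F112 against NTg the log2 difference was -0.13 (SE 0.0912, adjusted p = 0.778).

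In the main fit, Ide, Fgfbp3 and Btaf1 were the only genes called in F112 against F08 cord, all lower in F112, which is 0.0217% of 13839. With Xist as covariate 6 genes were called, and with a pseudocount of 0.1 there were 4. No further member was called under any setting, so genes that are no member were called in these 2 fits. By unadjusted p in F08 against NTg cord, Ide, Btaf1 and Fgfbp3 held ranks 1, 2 and 3 of all genes. In F112 against NTg cord 1 gene passed downward (0.00723%), which was no member, and 0 passed under several alternatives. Groups without overlap were more common: in F08 against NTg cord 2.57% of genes had every F08 value above every NTg value, among them 3 of the 9 members tested. In F112 against F08 cord 4.18% had every F112 value below every F08 value, among them 4 of 9. With 1 of the 12 libraries left out at a time, Btaf1 kept its call in F112 against F08 in 1 of 12 fits and Fgfbp3 in 2 of 12, while Ide kept it in all 12. Both calls also ended with no filter on low genes (adjusted p = 0.183 for Btaf1 and 0.157 for Fgfbp3) and with only the 2 genotypes fitted (adjusted p = 0.137 for Btaf1 and 0.114 for Fgfbp3). Without F08 mouse 6321 both had an adjusted p of 0.07, with Btaf1 at -0.37 and Fgfbp3 at -0.55. Without the same mouse Ide stayed called at -0.58 (adjusted p = 0.000518).

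The F08 excess was not the same for each gene. In mouse 6321 the cord level was 1.90 times the NTg mean for Ide, 1.65 times for Btaf1 and 1.95 times for Fgfbp3. In the other 3 F08 mice it averaged 1.54 times for Ide, 1.33 for Btaf1 and 1.46 for Fgfbp3, and within each gene these mice differed little: 1.53 to 1.55 for Ide apart from mouse 6321. Btaf1 was therefore the least raised of the 3 in every F08 cord.

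Cpeb3, whose body lies between Btaf1 and Ide, did not follow them in cord. It read 13.4, 12.7, 14.2 and 13.9 RPKM in F112, 14.5, 14.3, 14.5 and 14.6 in F08, and 14.8, 13.8, 14.9 and 14.2 in NTg cord. Its F08 values fell inside the NTg range, and mouse 6321 was at 1.01 times the NTg mean. The log2 difference in F08 against NTg was 0.01 (SE 0.0395, adjusted p = 1.00). In F112 against F08 it was -0.09 (SE 0.0395, adjusted p = 0.459), with no overlap of the 2 groups.

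The other 5 members tested in cord differed little between genotypes. Their log2 differences ran from -0.08 to 0.01 in F112 against NTg, from -0.06 to 0.02 in F08 against NTg, and from -0.04 to 0.02 in F112 against F08, and none passed. Tnks2, next to Fgfbp3 on the left, had 17.0 to 19.7 RPKM in F112, 17.7 to 18.7 in F08 and 17.8 to 18.4 in NTg cord. Ppp1r3c had 17.7 to 20.5 RPKM in F112, 18.2 to 20.0 in F08 and 18.7 to 20.5 in NTg cord. Hectd2 had 1.38 to 1.76 RPKM in F112, 1.58 to 1.71 in F08 and 1.56 to 1.81 in NTg cord. On the right, Exoc6 had 4.64 to 5.09 RPKM in F112, 4.44 to 5.42 in F08 and 4.81 to 5.11 in NTg cord. All these ranges overlap. Hhex was near the limit of the filter, at 0.375 to 0.689 RPKM in F112, 0.339 to 0.635 in F08 and 0.489 to 0.577 in NTg cord. Kif11, at 0.157 to 0.289 RPKM over the 12 cord libraries, stayed under the mean of 0.5 RPKM asked of a gene and was not tested.

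**Figure D2:**
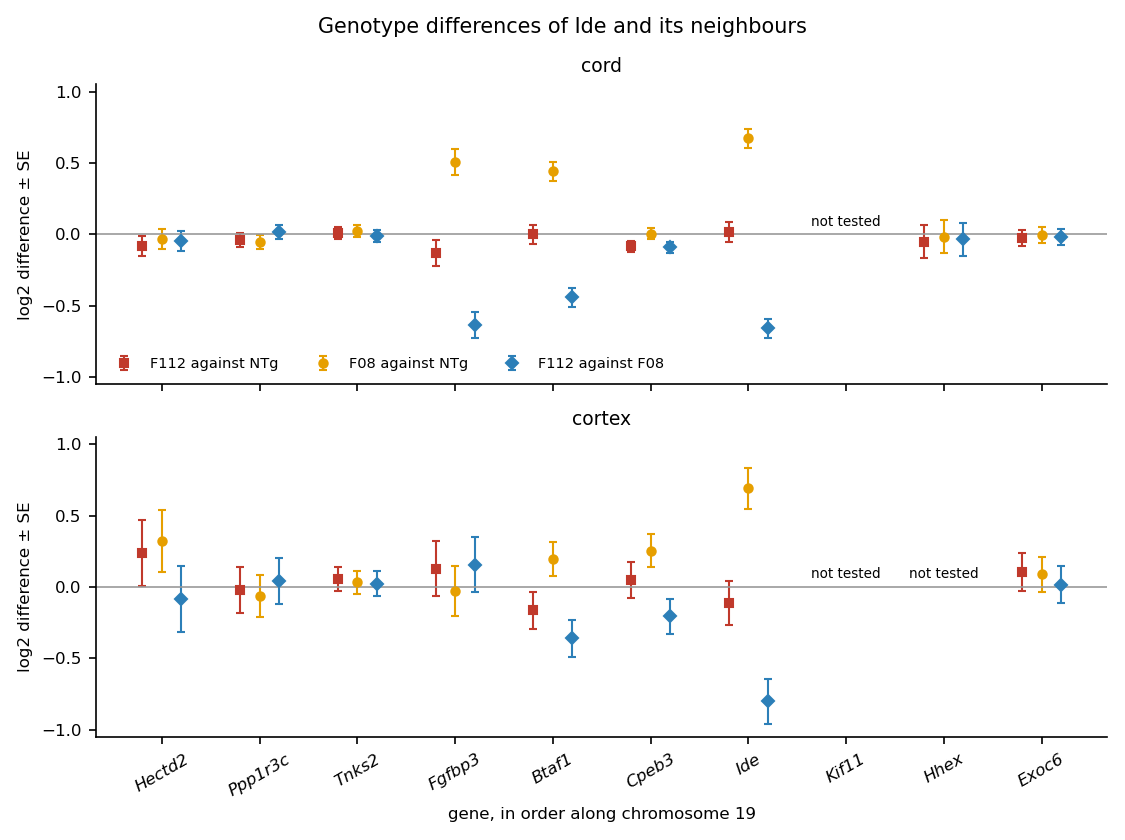
Log2 differences of log2(RPKM + 0.5) with their SE (bars) for the members in genomic order, in cord (top) and cortex (bottom), for F112 against NTg, F08 against NTg and F112 against F08. In cord the F08 excess stands at Fgfbp3 (0.51), Btaf1 (0.44) and Ide (0.67) with Cpeb3 at 0.01 between them; in cortex Ide stands out at 0.69.

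Over the 9 members tested in cord the median log2 difference was -0.04 in F112 against NTg, 0.01 in F08 against NTg and -0.04 in F112 against F08, where the medians of all 13839 genes were -0.01 in F112 against NTg, 0.01 in F08 against NTg and -0.02 in F112 against F08. Beyond the members, the nearest measured genes on the left were Pcgf5, Rpp30 and Htr7, and on the right Myof, Rbp4 and Fra10ac1. Their F08 against NTg differences in cord were 0.09 for Pcgf5, 0.03 for Rpp30, 0.03 for Htr7, 0.11 for Myof, 0.15 for Rbp4 and -0.09 for Fra10ac1, and none passed. Within 2 Mb of the start of Ide, 12 other genes were matched by symbol and tested, and their differences ran from -0.12 to 0.15.

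**Figure D3:**
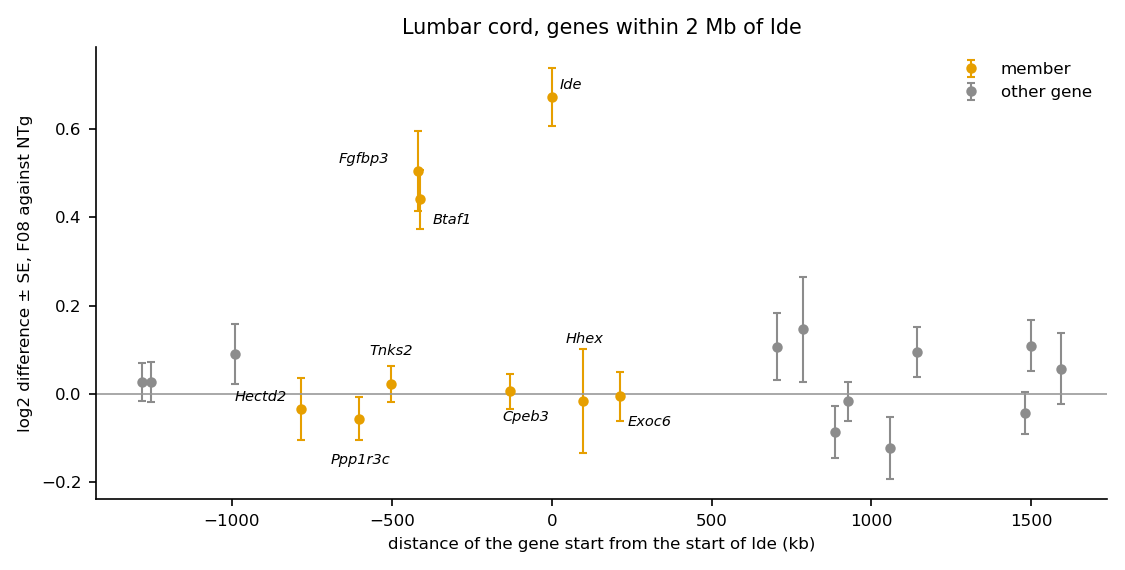
Log2 difference with SE (bars) in F08 against NTg cord for each tested gene within 2 Mb of Ide, plotted by the distance of its start from that of Ide in kb; members are in colour and the 12 other genes in grey. Fgfbp3, Btaf1 and Ide lie at 0.44 to 0.67 and the 12 other genes at -0.12 to 0.15.

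In cortex, the tissue that put Ide forward, Ide read 5.15, 4.40 and 5.46 RPKM in F112, 7.97, 8.01, 8.69 and 12.2 in F08, and 4.49, 6.24, 5.32 and 5.83 in NTg mice. The F08 values lay above all others, and mouse 6321, at 2.23 times the NTg mean, was again the highest. The other 3 F08 mice averaged 1.50 times the NTg mean, close to their 1.54 in cord. Every F08 value above every NTg value was seen for 0.822% of 13865 genes in cortex, with Ide and Cpeb3 among the 8 members kept. Every F112 value below every F08 value was seen for 2.05%, with Ide the only member.

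Btaf1 in cortex read 2.49, 2.69 and 3.46 RPKM in F112, 3.32, 3.63, 3.89 and 4.46 in F08, and 3.21, 3.44, 3.25 and 3.14 in NTg mice. The groups overlapped, and the log2 differences were -0.16 (SE 0.13) in F112 against NTg, 0.20 (SE 0.12) in F08 against NTg and -0.36 (SE 0.13) in F112 against F08. Fgfbp3 read 2.40, 1.76 and 1.55 RPKM in F112, 1.35, 1.17, 2.05 and 2.13 in F08, and 1.59, 1.53, 1.66 and 1.95 in NTg cortex. F08 mice were both the lowest and among the highest, and the difference in F08 against NTg was -0.03 (SE 0.179). Cpeb3 read 8.36, 6.94 and 8.74 RPKM in F112, 9.04, 8.73, 9.27 and 10.1 in F08, and 6.20, 8.59, 7.78 and 8.44 in NTg cortex. Here the F08 mice lay above the NTg mice by a log2 difference of 0.26 (SE 0.114), unlike in cord.

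Several lists of cell type markers also differed in fitted level between F08 and NTg cortex, though their summed levels overlapped between these genotypes. All 6 oligodendrocyte markers (Mbp, Mog, Mag, Cldn11, Cnp and Mobp) had a higher fitted level in F08 than in NTg cortex, with a median log2 difference of 0.47 where the median of all genes was 0.00, and none was at 0. Their summed level was 704 to 1076 RPKM in F112, 950.3 to 1485 in F08 and 549 to 1096 in NTg cortex. With the mean of these markers as a covariate, the F08 against NTg difference in cortex was 0.55 for Ide (SE 0.163) and 0.09 for Cpeb3 (SE 0.107). In cord the same markers had a median difference of -0.0033 in F08 against NTg, with summed levels of 5815 to 6220 RPKM in F112, 6140.0 to 6412 in F08 and 5757 to 6552 in NTg mice. There Ide stayed called with the covariate, at 0.68 (SE 0.0641, limma adjusted p = 0.000731). Medians of the 9 marker lists in F08 against NTg cord ran from -0.31 (blood) to 0.14 (motor neuron). By limma, 0 of the 50 markers tested passed there, and 2 had an unadjusted p under 0.05. In F112 against F08 cord 0 passed and 10 had an unadjusted p under 0.05, where 10.4% of all genes did. The part of the other marker lists in the cord differences was not tested. In F08 against NTg cortex all 6 striatal neuron markers had a lower fitted level, with a median log2 difference of -0.64 and summed levels of 71.5 to 331 RPKM in F112, 53.7 to 349 in F08 and 48.1 to 513 in NTg mice, and none was at 0 in any library. All 7 choroid plexus markers were lower too, with a median of -0.77 and summed levels of 3.26 to 13.6 RPKM in F112, 3.56 to 756 in F08 and 13.7 to 743 in NTg mice; Kcne2 was at 0 in 2 of 11 libraries and Folr1 in 1. The 4 genes kept of 6 on the list of motor neuron markers had a median of -0.38, with summed levels over the list of 2.26 to 5.36 RPKM in F112, 0.908 to 11.2 in F08 and 1.01 to 8.64 in NTg mice, and Mnx1 was at 0 in 8 of 11 libraries. Which cells of the cortex samples expressed the genes of this list was not tested. The ranges of these 3 lists overlapped widely between genotypes, and the part of striatal and motor neuron markers in the cortex differences was not tested. The medians of the other 5 marker lists ran from -0.27 (blood) to 0.04 (astrocyte). In F112 against F08 cortex, all 6 oligodendrocyte markers had a lower fitted level (median log2 difference -0.54). So did all 7 choroid plexus (-0.66) and all 5 blood markers (-0.55). All 6 striatal neuron markers were higher (0.35), and the other lists were mixed. The Ide difference there was -0.80 (SE 0.156), and -0.85 to -0.66 over alternatives other than 1 library left out. That of Cpeb3 was -0.21 (SE 0.123), and -0.22 to -0.027 over them. Cortex Ttr varied between libraries, and without the 3 libraries richest in it, NTg mice 6322 and 6326 and F08 mouse 6320, the Ide difference in F08 against NTg cortex was 0.57 (SE 0.188).

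Of the remaining members in cortex, Hectd2 had 1.44 to 1.99 RPKM in F112, 1.20 to 2.48 in F08 and 0.914 to 2.12 in NTg mice. Ppp1r3c had 9.80 to 13.7 RPKM in F112, 8.97 to 13.9 in F08 and 10.8 to 13.5 in NTg mice. All of these overlapped between genotypes. Tnks2 had 11.4 to 12.6 RPKM in F112, 10.9 to 12.7 in F08 and 10.8 to 12.3 in NTg mice. Exoc6 had 3.86 to 4.87 RPKM in F112, 3.32 to 4.87 in F08 and 3.72 to 4.16 in NTg mice, so these overlapped as well. Hhex, at 0.19 to 0.627 RPKM over the 11 libraries, and Kif11, at 0.0465 to 0.642 RPKM, were under the filter.

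The difference between cortex and cord in the F08 against NTg contrast was 0.02 for Ide (SE 0.161), given as a description. It was -0.53 for Fgfbp3 (SE 0.198, limma adjusted p = 0.999), -0.24 for Btaf1 (SE 0.131, adjusted p = 0.999) and 0.25 for Cpeb3 (SE 0.116, adjusted p = 0.999), cortex minus cord. For Fgfbp3 in F112 against F08, cortex minus cord was 0.79 (SE 0.206, unadjusted p = 0.00092, limma adjusted p = 1.00), its log2 difference being 0.16 in cortex and -0.63 in cord. None of these passed, so the higher cord values of Fgfbp3 and Btaf1 are not shown to be a property of cord. Cortex and cord also differed in sequencing protocol and depth, so tissue and protocol cannot be told apart here. Of 13101 genes, 0.00763% passed this test in F08 against NTg, and 0 in F112 against F08, where 524 had an unadjusted p under 0.05.

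The 11 mice with both tissues also allow the spread within a genotype to be compared. After each value was centred on its genotype mean, the cortex and cord levels of Ide had a Pearson r of 0.70 and a Spearman rho of 0.53, given as a description since the cortex values of Ide put it forward. The other members were tested by exact permutation within genotype, adjusted over 13101 genes. Without the 2 mice farthest from the median in cortex, F08 6321 and NTg 6322, r was -0.04, and without F08 6321 alone it was 0.13, so the relation rests on that mouse. Btaf1 had r = 0.78 (rho 0.52, exact permutation p = 0.0527, adjusted p = 0.941). Its r was 0.65 without F08 6321 alone, and -0.13 without its 2 farthest mice, F112 6324 and F08 6321. Fgfbp3 had r = 0.58 (rho 0.53, exact permutation p = 0.146, adjusted p = 0.975), and 0.35 without 2 mice. Across all 13101 genes the share that passed was 0%; without adjustment, p was under 0.05 for 695.

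**Figure D4:**
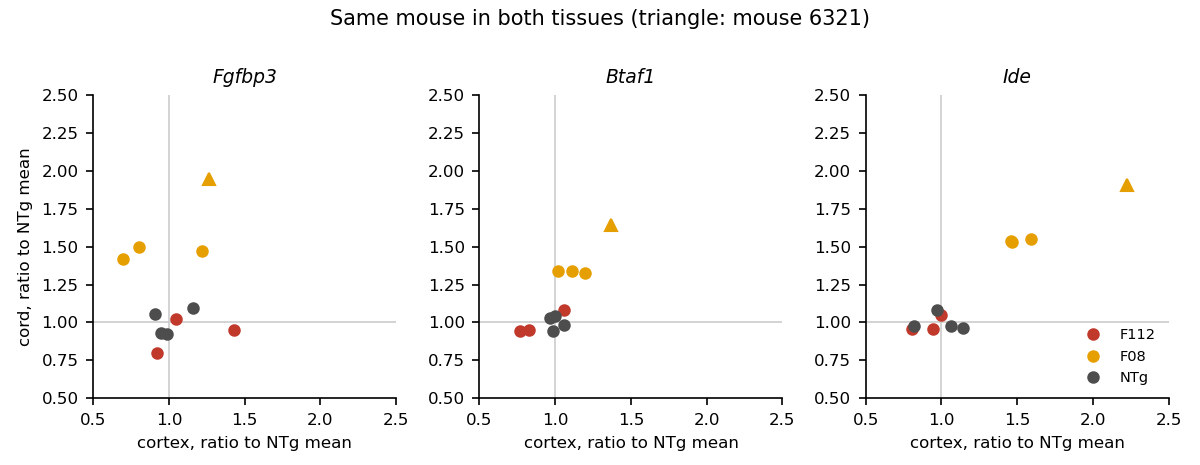
Level in cortex (x axis) and in cord (y axis) of the same mouse, each as a ratio to the NTg mean of that tissue, for Fgfbp3, Btaf1 and Ide in the 11 mice with both libraries; the triangle is F08 mouse 6321. For Ide the 4 F08 mice are at 1.46 to 2.23 in cortex and 1.53 to 1.90 in cord, away from the F112 and NTg mice, while for Fgfbp3 they are apart in cord only.

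By level, the order in NTg cord was Ppp1r3c (19.7 ± 0.955 RPKM), Tnks2 (18.1 ± 0.254), Cpeb3 (14.4 ± 0.494), Ide (9.64 ± 0.514), Exoc6 (4.94 ± 0.128), Btaf1 (3.53 ± 0.158), Hectd2 (1.69 ± 0.121), Fgfbp3 (1.35 ± 0.118), Hhex (0.543 ± 0.0376) and Kif11 (0.229 ± 0.0558; SD, n = 4 each). No neighbouring pair in this order overlapped. In NTg cortex the order was the same but for Fgfbp3 (1.68 ± 0.186 RPKM) and Hectd2 (1.44 ± 0.511), which changed places. There the ranges overlapped between Ppp1r3c and Tnks2, Cpeb3 and Ide, Fgfbp3 and Hectd2, and Hhex and Kif11. In comparing the 2 orders, tissue and sequencing protocol cannot be told apart.

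Likeness to Ide was measured as Pearson r of log2 values over the libraries of a tissue, a description in which the genotype groups are shared. Over 12 cord libraries and 13838 genes, Btaf1 ranked 1 (r = 0.99) and Fgfbp3 ranked 5 (r = 0.88), and among genes that are no member Bri3bp (0.91), Tshz3 (0.90), Fam53b (0.90), Brinp2 (0.88) and Rnf122 (0.88) were highest. Cpeb3 ranked 1258 (r = 0.46). Over 11 cortex libraries, Mfsd7b (0.90), Sirt2 (0.89), Snora33 (0.86), Phldb1 (0.86) and Tmem125 (0.85) were highest, Cpeb3 ranked 9 (0.84) and Btaf1 16 (0.83), while Fgfbp3 had r = 0.03. By the lower r of both tissues Btaf1 ranked 1 (0.83), followed by Sox10 (0.79), Gab1 (0.73), Pik3c2b (0.70), Ubr2 (0.68) and Ndrg1 (0.67). These r values were taken without the oligodendrocyte covariate, although those markers had a higher fitted level in F08 than in NTg cortex.

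Relatives and partners of the members were examined in 11 lists with 120 genes tested in cord, chosen for what the members do. None passed in any of the 3 cord comparisons by limma; 9 had an unadjusted p under 0.05 in F112 against NTg, 3 in F08 against NTg and 10 in F112 against F08. Over all 13839 genes such p-values made up 7.11% in F112 against NTg, 4.10% in F08 against NTg and 10.4% in F112 against F08, so the lists' counts were near this background. Of the 6 other M16 metallopeptidases none passed in F08 against NTg, with a median log2 difference of 0.01, and Pmpca and Pitrm1, both mitochondrial peptidases, were at -0.04 and -0.05. Of 13 amyloid-beta degrading enzymes and their precursor none passed, with a median of 0.00; Ece1, an endothelin-converting enzyme, was at 0.07 and Mmp14, a membrane metalloprotease, at -0.14. Of 20 genes of insulin and IGF signalling none passed, with a median of 0.02; Igfbp5, an IGF-binding protein, was at 0.12 and Irs2, an insulin receptor substrate, at 0.11. Of 13 fibroblast growth factors, receptors and related genes none passed, with a median of -0.01; Fgfr3 was at 0.07 and Fgf13 at -0.08. Of 16 genes of the TATA-box binding complex none passed, with a median of -0.01, Taf4a at 0.14 and Taf10 at -0.11. The median was 0.02 over 9 CPEB relatives and partners, with Tob2 at -0.20 and Tob1 at -0.08, and -0.01 over 8 exocyst genes, with Exoc7 at 0.05 and Exoc4 at -0.04. It was 0.07 over 6 genes around tankyrase, with Terf1 at 0.18 and Axin2 at 0.12, and 0.00 over 15 genes of glycogen metabolism, with Gys1 at 0.07 and Stbd1 at -0.10. It was -0.03 over the 2 mitotic genes tested of 14, Bub1b at -0.10 and Aurka at 0.04, and 0.02 over 12 HECT ligases, with Itch at 0.07 and Nedd4 at 0.03. The median over all 13839 genes was 0.01.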

How the data were processed

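RNA-seq libraries of cortex (11) and lumbar cord (12) were read from the authors' deposited tables of RPKM values, 1 per tissue, scaled apart. The submitters' processing notes name TopHat2 2.0.8b, Partek, mm9 and mm10, without saying which build served which table; the counting rule and use of strand are not stated there or in the labels, so reads of overlapping genes could be shared. No counts are given, and read numbers behind a value were approximated from RPKM, the alignments listed in the tables and GENCODE M21 exon lengths. In each tissue, genes averaging 0.5 RPKM or more were kept, which left 13865 in cortex and 13839 in cord, and log2(RPKM + 0.5) was fitted by limma 3.58.1 (R 4.3.3; empirical Bayes with trend, 3 genotypes in 1 fit, two-sided, Benjamini-Hochberg over all genes kept, threshold 0.05). Fold changes of low genes are understated on this scale. The fit was tested on simulated data. Cortex and cord of 1 animal were paired by the mouse number in the labels; the consensus correlation between them over all genes was 0.0405. Gene names that spreadsheets had turned into dates (26 per table) were not assigned. 1 oligodendrocyte marker is not reported here and was left out of its list. Members and lists were chosen with earlier results of these data known. Named genes were the 10 members, 3 flanking genes on each side, the 5 genes most like Ide by each measure, and at most 2 genes per list with the smallest p in F08 against NTg cord. Alternatives covered scaling, pseudocount, filter, covariates and each library left out; the oligodendrocyte covariate was chosen after seeing the data. The limma p-values set a difference between genotypes against the spread between these mice within genotypes. They do not cover spread between transgenic lines.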

Additional observations from a re-analysis of the deposited data

Results flagged for a closer look

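A sample far from the other 3 of its group was found in 5 of the 50 groups of 4 mice examined for the 10 members. The rule used flags about 1 in 20 by chance when groups are independent. These groups share mice and libraries, so the count cannot be set against that rate, and the share over all genes is not given here. Of the 5 flagged groups, 3 were flagged for the same library, F08 mouse 6321 in cord, which was high for Ide (18.4 RPKM), Btaf1 (5.81 RPKM) and Fgfbp3 (2.63 RPKM). The others were NTg mouse 6326 in cord, high for Ide (10.4 RPKM), and F08 mouse 6320 in cortex, high for Kif11 (0.642 RPKM), which lies under the filter there. In F08 mouse 6321 the cord level of Cpeb3 was 14.6 RPKM, within the NTg range.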

How the results depend on the processing

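In cord, Ide kept its call in F112 against F08 under every alternative run (-0.69 to -0.58), and in F08 against NTg under all but log2 alignments as covariate (0.60, adjusted p = 0.0731; adjusted p 5.97e-05 to 0.0731 over all of them). The number of genes called in F112 against NTg was 0 with a pseudocount of 1, with no filter, with a filter at 5 RPKM, with only the groups compared, and with log2 alignments or oligodendrocyte markers as covariate, and 0 to 2 with 1 library left out (2 without F112 mouse 6316, 0 without any other). In F08 against NTg it was 2 with Xist and 0 with log2 alignments as covariate. In F112 against F08 it was 1 with no filter, with a filter at 5 RPKM, with only the groups compared and with oligodendrocyte markers as covariate, 6 with Xist as covariate, and 1 to 4 with 1 library left out (4 without F112 mouse 6317 or NTg mouse 6322, 3 without F112 mouse 6325, 1 without any other). The F112 against F08 call of Btaf1 was also lost with quantile normalization (adjusted p = 0.0726) and when libraries were scaled by median ratios (adjusted p = 0.0598); Btaf1 in F08 against NTg was called with Xist as covariate (0.44, adjusted p = 0.00881).

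Signs turned only for differences that were not called. In F112 against NTg cord, log2 alignments gave -0.080 for Btaf1 and -0.071 for Ide, oligodendrocyte markers gave -0.021 for Btaf1 and -0.011 for Ide, and leaving out 1 library gave -0.033 to 0.024 for Btaf1 and -0.017 to 0.052 for Ide. Cpeb3 in F08 against NTg cord was -0.0080 with quantile normalization, -0.0074 with log2 alignments, and -0.013 to 0.021 with 1 library left out. Its Spearman rho between tissues was -0.0091, and its r -0.39 to 0.50 with 1 mouse left out. The tissue difference, cortex minus cord, ranged with 1 mouse left out from -0.057 to 0.094 for Ide in F08 against NTg and from -0.0041 to 0.14 for Btaf1 in F112 against F08, with 1 to 2 genes called in F112 against NTg (2 without NTg mouse 6326) and in F08 against NTg (2 without NTg mouse 6323). With the animal as replicate block, the Ide tissue difference in F08 against NTg was 0.02 (SE 0.156), and 1 gene was called in F112 against NTg, 1 in F08 against NTg and 0 in F112 against F08, as without the block. The other 5 members tested in cord were called in no comparison under any setting (-0.13 to 0.08). The cause of these changes was not tested. Depth limits Hhex (about 61 to 120.0 reads in cord) and Fgfbp3 most among the members tested in cord.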
